A study of Mus musculus with 8 samples.

Results

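The 10 genes described here encode receptors (Notch1, Notch2 and Notch3), ligands (Dll1, Dll3, Jag1 and Jag2) and target genes (Hes1, Hes5 and Hey1) of the Notch pathway. They were chosen by name from the 24155 genes of the deposited count table. The rule itself uses no measured value, but the choice was made with earlier results of these data known. All 10 passed the filter on low counts, which left 18102 genes to test. The RNA came from cultured oligodendrocyte progenitors of the mouse, glial cells that divide and can mature into myelin-forming oligodendrocytes. They were taken by immunopanning, capture on antibody-coated dishes, from male and female pups at postnatal day 7. All cultures carried the same genotype, Ehmt1fl/fl;Ehmt2fl/fl, in which both alleles of each gene are flanked by loxP sites. Ehmt1 and Ehmt2 encode partner enzymes that methylate histone H3 on lysine 9. The cKO group (4 libraries) received the adenovirus Ad-RFP-iCre, which carries red fluorescent protein and Cre recombinase. The control group (4 libraries) received Ad-RFP, with the fluorescent protein and no Cre. Cells were exposed to either virus for 6 hours at 10 infectious units per cell (MOI 10), they were kept in SATO medium with 10 ng/mL PDGF-AA and 20 ng/mL bFGF, and RNA was taken at 72 hours after infection. Replicates are numbered 1, 3, 4 and 6 after their batches, each of which gave 1 cKO and 1 control library. The batch label of replicate 3 carries a further number, for both of its libraries, whose meaning is not known here. The labels do not say how many pups went into a batch, whether batches came from separate litters, or which promoter drives Cre, so p-values measure the spread between these pairs, which may be partly technical.

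Notch signalling passes between touching cells. A Delta-like or Jagged ligand on the surface of a cell binds a Notch receptor on its neighbour, gamma-secretase then frees the receptor's intracellular part, and this joins the DNA-binding protein RBPJ and a Mastermind coactivator to switch on Hes and Hey genes. The HES and HEY proteins are transcriptional repressors. In the oligodendrocyte lineage the pathway is known for holding progenitors back from maturing, with Jagged1 on axons as a ligand, Notch1 as the receptor on progenitors and Hes5 as a repressor of myelin genes.

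Totals ran from 43542742 to 65374488 estimated counts per library. The targeted genes were lower in every cKO library. Ehmt1 averaged 41.5 ± 3.98 CPM in cKO and 95.5 ± 5.58 CPM in control libraries, and Ehmt2 averaged 58.4 ± 5.86 CPM in cKO and 177 ± 17.1 CPM in control libraries (SD, n = 4 each; CPM is counts per megacount, a gene's counts scaled by the TMM-adjusted library total). Defining markers of progenitors were abundant, with 10 genes that include Pdgfra, Olig2 and Sox10 summing to between 7952 and 12023 CPM in cKO and between 8636 and 13330 CPM in control libraries. Astrocyte markers were also present, at a sum of 1166 to 2822 CPM in cKO and 1257 to 3073 CPM in control libraries over 10 genes. Counting of such bulk RNA cannot tell fewer cells of a type from less RNA per cell. Genes of the mitochondrial genome took a larger share of counts in cKO in 4 of 4 pairs, at 3.31% ± 0.282 against 2.80% ± 0.370 in control (SD, n = 4 each; exact paired permutation test, 2-sided, p = 0.12, the smallest that 4 pairs allow). The gene CT010467.1 took 7.67% ± 1.05 of counts in cKO and 9.18% ± 0.951 in control libraries, lower in 4 of 4 pairs with the same exact p. The part of either in the results below was not tested.

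Of the 10 Notch genes, 6 fell in cKO cultures and 0 rose. The 6 were the receptors Notch2 and Notch3, the ligands Dll1, Dll3 and Jag1, and the target gene Hes5, and their levels were between 15.4% and 32.2% lower. Here "fell" and "rose" mean a Benjamini-Hochberg adjusted p under 0.05 over all genes tested, in edgeR's 2-sided quasi-likelihood test with the replicate number as a block, and fold changes are log2 values of cKO over control ± SE from that fit. Over all genes tested, 10.4% fell and 10.0% rose. Among genes with a mean of at least 10 CPM, as 9 of the 10 members have, 16.3% fell and 10.4% rose. The median log2 fold change was -0.34 over the members and -0.01 over all genes tested. All 10 members had a fold change below 0, against 51.7% of all genes tested. Within pairs, cKO was lower in 34 of 40 comparisons, and 5 members were lower in 4 of 4 pairs, as were 21.3% of all genes tested. The count of members higher in cKO was 0 also at an unadjusted p under 0.05, in edgeR as in DESeq2 and limma-voom with the block. These calls need the pairing: without the block, 0 of the 10 fell in edgeR or in DESeq2, and 0 had an unadjusted p under 0.05. In edgeR without the block, 0.0110% of all genes tested fell and 1.50% had a lower level at an unadjusted p under 0.05. Without replicate 1, 3, 4 or 6 the block fit called 7, 4, 5 and 4 members lower.

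**Figure D1:**
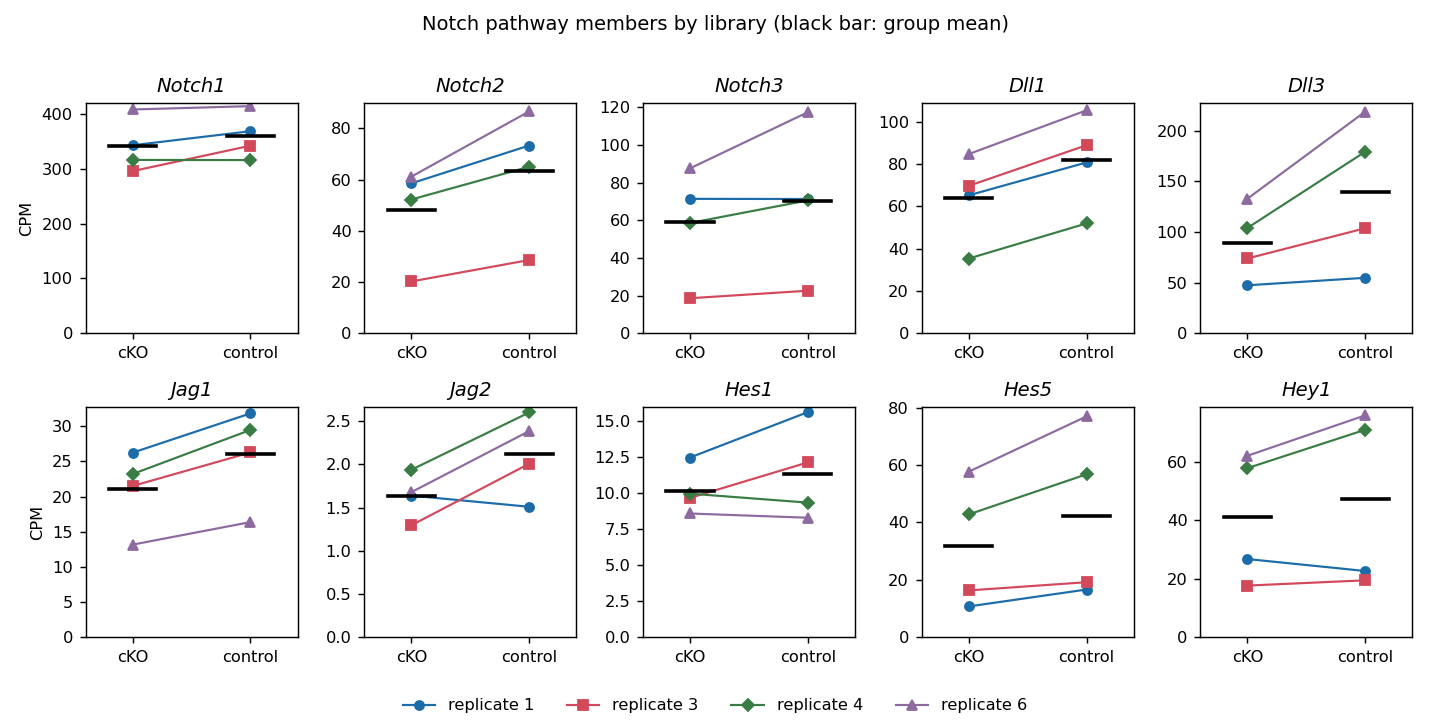
Level of each of the 10 genes in CPM (vertical axes start at 0) in cKO libraries (left of each panel) and control libraries (right). Lines join the 2 libraries of a replicate number and black bars are group means. The groups overlap for all 10 genes, while most lines are lower at the cKO end, in 34 of 40 pairs.

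The receptors differed in how much they changed. Notch2, a receptor that also acts in many epithelia and in blood vessels, fell and was lower in 4 of 4 pairs. It stood at 58.5, 20.2, 52.2 and 61.2 CPM in cKO replicates 1, 3, 4 and 6, against 73.3, 28.6, 65.0 and 86.7 CPM in control replicates 1, 3, 4 and 6. Both libraries of replicate 3 were far below the others, and the groups overlapped although each cKO library was below its own control. The log2 fold change was -0.41 ± 0.04 (adjusted p = 0.000201 in edgeR, the smallest p among the 10), and it lay between -0.50 and -0.32 in single pairs. Notch2 lies on chromosome 3 (98013527 to 98150361, mm10, plus strand), and the gene models Gm42819 and Gm42820 overlap it on the same strand.

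Notch3 (chromosome 17, 32120820 to 32166852, minus strand), best known from the mural cells of small vessels, had 71.3, 18.6, 58.5 and 87.5 CPM in cKO replicates 1, 3, 4 and 6, against 71.2, 22.6, 70.5 and 117 CPM in control replicates 1, 3, 4 and 6. Replicate 3 was again the lowest in both groups, and the replicate 1 libraries had nearly equal levels. The fold change was -0.24 ± 0.06 (adjusted p = 0.0347 in edgeR), lower in 3 of 4 pairs. This call did not hold without replicate 3 (-0.23, adjusted p = 0.138), replicate 4 (-0.22, adjusted p = 0.138) or replicate 6 (-0.17, adjusted p = 0.0705) in the same edgeR fit. Mural cell markers were scarce: 8 of 10 had a row in the table, 4 of these stayed under 1 CPM in every library, and the list summed to 8.00 to 18.0 CPM in cKO and 6.73 to 17.9 CPM in control libraries. Of the 6 that could be tested, 2 rose and 0 fell. The part of mural cells in the level of Notch3 was not tested.

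Notch1 (chromosome 2, 26457903 to 26516663, minus strand), the receptor through which axonal Jagged1 is known to act on progenitors, ranged from 296 to 408 CPM in cKO and from 316 to 414 CPM in control libraries. Its fold change was -0.08 ± 0.04 and did not pass (adjusted p = 0.142 in edgeR). Within pairs the log2 difference ran from -0.21 to 0.00. Notch1 was the steadiest of the 10 across batches, with a highest control level 1.31 times the lowest, against 5.19 times for Notch3.

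**Figure D2:**
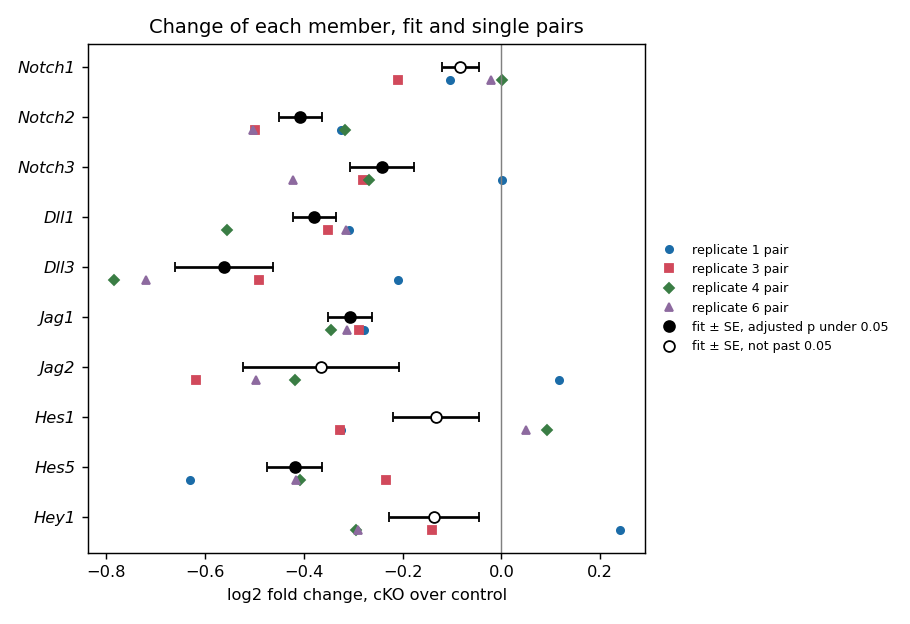
Log2 fold change of cKO over control (horizontal axis) for each gene. Black points with bars are the edgeR fit ± SE, filled where the adjusted p is under 0.05, and coloured symbols are the differences within single pairs. Jag1 varied least between pairs and Jag2 most.

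Among the ligands, Dll1, Dll3 and Jag1 fell and Jag2 did not pass. Dll1 (chromosome 17, 15367354 to 15376872, minus strand), which binds Notch receptors on a neighbouring cell, had 65.2, 69.6, 35.3 and 84.6 CPM in cKO replicates 1, 3, 4 and 6. Control replicates 1, 3, 4 and 6 had 80.7, 88.9, 51.9 and 105 CPM. Replicate 4 was the lowest in both groups, and every cKO library was below its own control. The fold change was -0.38 ± 0.04 (adjusted p = 0.000328 in edgeR), between -0.56 and -0.31 in single pairs.

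Dll3 (chromosome 7, 28293553 to 28302238, minus strand), an atypical ligand that acts inside the cell and dampens Notch signalling rather than activating it, showed the largest change of the 10. Levels were 47.4, 73.8, 104 and 133 CPM in cKO replicates 1, 3, 4 and 6, and 54.7, 104, 179 and 219 CPM in control replicates 1, 3, 4 and 6. Replicates 4 and 6 were high and replicate 1 was low in both groups. The difference was also uneven, from -0.79 in the replicate 4 pair to -0.21 in the replicate 1 pair on the log2 scale. The fold change was -0.56 ± 0.10 (adjusted p = 0.0174 in edgeR). It missed the threshold without replicate 3 (-0.58, adjusted p = 0.0516) or replicate 6 (-0.51, adjusted p = 0.0841), and with no filter on low counts (-0.55, adjusted p = 0.0576), all in edgeR.

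Jag1 (chromosome 2, 137081456 to 137116644, minus strand), a Jagged ligand that neurons present to progenitors, was read here in RNA of whole progenitor cultures. Astrocyte markers were present in these too, and which cells the Jag1 reads came from was not tested. Jag1 had 26.3, 21.5, 23.2 and 13.2 CPM in cKO replicates 1, 3, 4 and 6, against 31.8, 26.3, 29.5 and 16.4 CPM in control replicates 1, 3, 4 and 6. Replicate 6 was the lowest in both groups, unlike for Dll1 and Dll3, where it was the highest. The fold change was -0.31 ± 0.04 (adjusted p = 0.00112 in edgeR), with the 4 pairs between -0.34 and -0.28. Jag2 (chromosome 12, 112907819 to 112929776, minus strand), the other Jagged ligand, was scarce at 1.30 to 1.94 CPM in cKO and 1.51 to 2.60 CPM in control libraries. Its fold change was -0.36 ± 0.16 (adjusted p = 0.129 in edgeR), higher in cKO in the replicate 1 pair and lower in the other three.

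Of the target genes, Hes5 fell while Hes1 and Hey1 did not pass. Hes5 (chromosome 4, 154960923 to 154962371, plus strand), a repressor that is a direct target of Notch in neural progenitors, had 10.7, 16.3, 42.8 and 57.7 CPM in cKO replicates 1, 3, 4 and 6. In control replicates 1, 3, 4 and 6 it had 16.6, 19.2, 56.8 and 77.0 CPM. Replicates 4 and 6 were well above replicates 1 and 3 in both groups, and cKO was below control in every pair. The fold change was -0.42 ± 0.06 (adjusted p = 0.000802 in edgeR), between -0.63 and -0.23 in single pairs. Gm20421, on the strand opposite Hes5, was at 0.388 to 1.99 CPM in cKO and 0.510 to 2.69 CPM in control libraries. The sources used here do not give the strand setting of the counting, so reads of the 2 genes cannot be told apart where they overlap.

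Promoters of 3 target genes are shown, picked by hand with a motif for each. Hes5 and Hey2 are shown for the site of RBPJ, the DNA-binding protein of the pathway. Nrarp is shown for a site of HES and HEY proteins. Each promoter covers 250 bases before the gene's start and 50 from it on, from RefSeq on GRCm38.p6, read along the gene. The Hes5 promoter is chr4:154960673-154960972 (plus strand), the Hey2 promoter chr10:30842734-30843033 (minus strand) and the Nrarp promoter chr2:25180508-25180807 (plus strand). Capitals mark TGGGAA, the core of the RBPJ site, or TTCCCA, the same core on the other strand, in Hes5 and Hey2, and in Nrarp the E box CACGTG, a sequence that HES and HEY proteins can bind.
Hes5: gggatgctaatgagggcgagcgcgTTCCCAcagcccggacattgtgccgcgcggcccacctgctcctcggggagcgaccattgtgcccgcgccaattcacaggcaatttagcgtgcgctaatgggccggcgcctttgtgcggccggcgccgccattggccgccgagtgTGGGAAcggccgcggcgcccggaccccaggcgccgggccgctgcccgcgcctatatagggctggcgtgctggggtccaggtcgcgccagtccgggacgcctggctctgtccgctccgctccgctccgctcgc
Hey2: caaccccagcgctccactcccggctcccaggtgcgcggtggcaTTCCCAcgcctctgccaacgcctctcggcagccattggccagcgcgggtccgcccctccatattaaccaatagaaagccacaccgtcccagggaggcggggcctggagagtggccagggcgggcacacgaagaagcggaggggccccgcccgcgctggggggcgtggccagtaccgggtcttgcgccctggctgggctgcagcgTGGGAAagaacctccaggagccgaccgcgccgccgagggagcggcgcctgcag
Nrarp: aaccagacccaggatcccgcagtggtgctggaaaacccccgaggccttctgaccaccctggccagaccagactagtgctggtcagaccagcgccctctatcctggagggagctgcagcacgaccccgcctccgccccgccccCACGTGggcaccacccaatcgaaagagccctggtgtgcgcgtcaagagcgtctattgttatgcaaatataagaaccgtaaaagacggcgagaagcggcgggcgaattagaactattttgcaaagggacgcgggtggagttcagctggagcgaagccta
In Hes5 the 2 cores begin 226 and 82 bases before the start. Hey2 likewise holds 2, which begin 207 and 3 bases before its start, whereas Nrarp holds 0 of them. Of 32851 RefSeq promoters of this length, 25.6% hold at least 1 TGGGAA on either strand and 3.79% hold at least 2, while 7.15% hold CACGTG, which reads the same on both strands. Of 52 other pathway genes with a promoter, 17 held TGGGAA, and 2 cores were also found in genes not on the target lists, such as Rbpj. RefSeq promoters were matched for 8 of the 10 members, all except Hes1 and Hey1, and Hes5 was the only one of the 8 with TGGGAA in its window. CACNAG, the N box that HES proteins can bind, was searched on both strands. It was in a promoter of 4 of the 8 (Notch1, Notch2, Notch3 and Dll1), against 42.5% of all single promoters. The 8 genes have 9 promoters, because Dll1 has more than 1, and only 1 of the Dll1 promoters holds CACNAG. A match describes letters and is not a measured binding site.

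Hes1 (chromosome 16, 30064384 to 30067796, plus strand), the other HES repressor that Notch is known to drive, had 12.5, 9.67, 9.97 and 8.59 CPM in cKO replicates 1, 3, 4 and 6, against 15.6, 12.1, 9.34 and 8.29 CPM in control replicates 1, 3, 4 and 6. The cKO library was lower in the pairs of replicates 1 and 3 and higher in those of 4 and 6. Its fold change was -0.13 ± 0.09 (adjusted p = 0.321 in edgeR). Hey1 (chromosome 3, 8663359 to 8667256, minus strand), a related repressor, had 26.8, 17.7, 57.9 and 62.2 CPM in cKO replicates 1, 3, 4 and 6, and 22.7, 19.5, 71.1 and 76.0 CPM in control replicates 1, 3, 4 and 6. Like Hes5, it stood higher in replicates 4 and 6 than in 1 and 3. Its fold change was -0.14 ± 0.09 (adjusted p = 0.349 in edgeR), and without replicate 1, where cKO was the higher library, it was -0.25 with an adjusted p of 0.00959 in edgeR.

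Levels of these genes also differed between batches. The mean log2 level of a pair differed between the lowest and the highest replicate number by 4.98-fold for Hes5, 4.94-fold for Notch3, 3.70-fold for Hey1, 3.35-fold for Dll3 and 3.02-fold for Notch2. In all 10 genes this range exceeded the change in cKO, but a range between extremes and an average change are unlike measures. How many of all genes tested show the same was not counted. Replicate 6 was highest for 7 of them (all but Jag1, Jag2 and Hes1), and replicate 3 was lowest for Notch2, Notch3 and Hey1. The library sums of astrocyte markers were also lowest in replicate 3 and highest in replicate 6, at 1166 and 2822 CPM in cKO and 1257 and 3073 CPM in control libraries, and those of progenitor markers were lowest in replicate 1 and highest in replicate 6, at 7952 and 12023 CPM in cKO and 8636 and 13330 CPM in control libraries. Much of the difference between the progenitor sums lay in Gpr17, a receptor of committed progenitors. Its level ran from 160 CPM in replicate 1 to 4286 CPM in replicate 4 in cKO, and from 102 to 5377 CPM in control. Other progenitor markers had other orders in both groups. Pdgfra and Olig2 were highest in replicate 3 and lowest in replicate 4, while Sox10 was lowest in replicate 1 and highest in replicate 4. The part of either list in the batch pattern was not tested. Across the 8 libraries, the 3 genes whose log2 CPM followed Notch2 most closely, among 10085 genes with a mean of at least 10 CPM, were Ezr (Pearson r = 0.998), Axl (0.993) and A2m (0.988). These libraries share batches, and differences between batches enter the likeness.

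**Figure D3:**
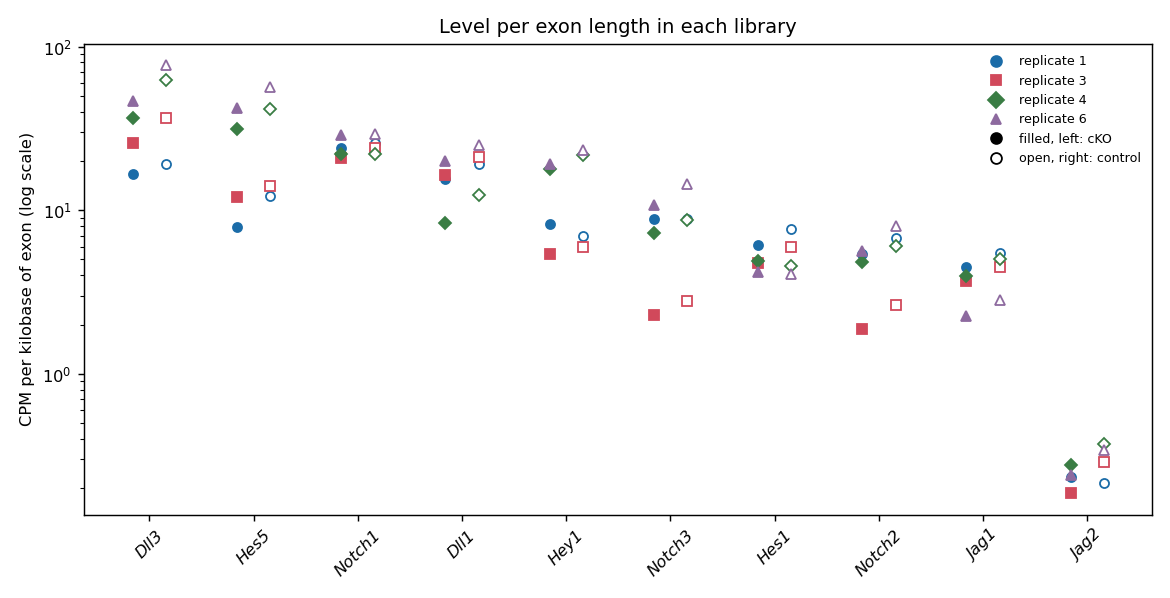
Level of each gene per kilobase of annotated exon (log axis) in each library, filled symbols on the left for cKO and open symbols on the right for control, with genes ordered by their mean. Dll3, Hes5 and Notch1 lie at the top and Jag2 lies far below the other 9.

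Levels of different genes were compared per kilobase of exon (the union of GENCODE M21 exons). Dll3 had the highest mean of the 10 at 31.4 ± 13.0 CPM per kilobase in cKO and 48.8 ± 25.9 in control libraries (SD, n = 4 each). Notch1 averaged 23.9 ± 3.44 in cKO and 25.3 ± 2.95 in control, and Hes5 23.4 ± 16.3 in cKO and 31.1 ± 21.6 in control. In replicate 1 Notch1 was above Dll3 in both groups, at 24.1 against 16.6 CPM per kilobase in cKO and 25.9 against 19.2 in control. Dll3 exceeded Notch1 in 3 of 4 cKO libraries and Hes5 in 4 of 4 control libraries. Notch1 was second by mean in cKO and Hes5 in control, and they changed places between libraries, each the higher in 2 of 4 in either group. Below them came Dll1, Hey1 and Notch3 in that order, with Dll1 above Hey1, and Hey1 above Notch3, in 3 of 4 libraries of either group; Hes5 exceeded Dll1 in 2 of 4 cKO libraries. Hes1 and Notch2 were close, at 4.99 ± 0.807 and 4.46 ± 1.75 CPM per kilobase in cKO and at 5.57 ± 1.61 and 5.88 ± 2.30 in control libraries, where Notch2 was the higher in 2 of 4. Jag1 averaged 3.61 ± 0.961 CPM per kilobase in cKO and 4.46 ± 1.17 in control libraries. Jag2 was below it in every library, at 0.235 ± 0.0379 in cKO and 0.305 ± 0.0687 in control.

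Of 66 other Notch pathway genes tested, 5 rose, 13 fell and 48 did neither, with a median log2 fold change of -0.07. That is 19.7% lower and 7.58% higher, where over all genes tested 10.4% fell and 10.0% rose. Among all genes with a mean of at least 10 CPM, 16.3% fell and 10.4% rose. These shares are the background for the single lists below too. Without replicate 1, 3 or 4 the number that fell was 8. Of 7 other receptors and ligands, 1 rose and 0 fell. Dner, a neuronal transmembrane ligand, rose by 0.21 ± 0.03, at 180 ± 22.5 CPM in cKO and 155 ± 19.9 CPM in control libraries (SD, n = 4 each). Cntn1, a contactin reported as a Notch ligand in the oligodendrocyte lineage, was abundant at 968 ± 254 CPM in cKO and 1005 ± 215 CPM in control libraries and did not pass (-0.07 ± 0.04). Notch4 (0.22 ± 0.14) and Dll4 (-0.53 ± 0.28), a receptor and a ligand known mainly from endothelium, were scarce and did not pass.

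Of 15 genes that build and cut the receptor, 1 rose, 1 fell and 13 did neither, as did 14396 of all 18102 genes tested. Mfng, a glycosyltransferase that tunes which ligands a receptor prefers, rose by 0.48 ± 0.12, at 5.63 ± 2.44 CPM in cKO and 4.08 ± 1.91 CPM in control libraries (SD, n = 4 each). Aph1a, a subunit of gamma-secretase, had a fold change of -0.14 ± 0.04 and fell. Neither call held throughout, since the adjusted p of Mfng in edgeR was 0.0742 without replicate 3 and 0.0803 without replicate 4, and that of Aph1a was 0.0875, 0.118 and 0.0973 without replicates 1, 3 and 4. Furin, the protease that makes the first cut in the receptor (-0.12 ± 0.04), and Poglut1, a glucosyltransferase (0.10 ± 0.04), did not pass. Furin passed with RLE factors (adjusted p = 0.0491 in edgeR), and Poglut1 with upper-quartile factors (0.0424) and without replicate 6 (0.0279). The median of this list was -0.04.

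Of 14 genes of endocytosis and turnover, 1 rose and 3 fell. Nrarp, a direct Notch target whose protein feeds back to limit the pathway, had 29.8, 30.7, 39.7 and 70.8 CPM in cKO replicates 1, 3, 4 and 6, against 41.5, 38.8, 66.9 and 106 CPM in control replicates 1, 3, 4 and 6. Like Hes5 it was highest in replicate 6 and lower in cKO in every pair. Its fold change was -0.54 ± 0.06 (adjusted p = 0.000728 in edgeR), next to that of Dll3 in size. Numbl, an endocytic adaptor that opposes Notch, fell (-0.26 ± 0.06), as did Mib2, a ubiquitin ligase for ligands (-0.21 ± 0.05). Neurl1a, the mouse relative of the fly ligand ubiquitin ligase Neuralized, rose by 0.67 ± 0.07, at 22.5 ± 10.7 CPM in cKO and 14.5 ± 7.78 CPM in control libraries (SD, n = 4 each). In edgeR, the adjusted p of Mib2 was 0.0668 without replicate 3 and 0.0843 without replicate 4, and that of Numbl was 0.0651 without replicate 4.

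In the nuclear complex and its corepressors, 8 of 21 genes fell and 1 rose, with a median of -0.09. The Mastermind coactivator gene Maml2 fell (-0.26 ± 0.04), as did Spen, a corepressor that binds RBPJ (-0.20 ± 0.03), and Tle3, a Groucho corepressor used by HES proteins (-0.30 ± 0.03). Rbpj itself was not among the genes named by rule and did not pass (-0.06 ± 0.03). Rbpjl, a relative of Rbpj known from the pancreas, rose by 1.42 ± 0.21 at a low level, 1.36 ± 0.693 CPM in cKO and 0.535 ± 0.401 CPM in control libraries (SD, n = 4 each).

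Of 9 other target genes, 1 rose and 1 fell. Gfap, the intermediate filament of astrocytes that Notch can induce in glia, rose by 0.86 ± 0.17, with its highest level in replicate 6 of both groups, and averaged 5.14 ± 5.64 CPM in cKO and 3.18 ± 4.26 CPM in control libraries (SD, n = 4 each). Myc, a growth regulator and Notch target in T cells, fell (-0.28 ± 0.05). Hes6, a HES relative that opposes Hes1 (-0.10 ± 0.04), and Hey2 (-0.42 ± 0.19), the gene whose promoter is shown with that of Hes5, did not pass. Hey2 did pass without replicate 3 (-0.62, adjusted p = 0.0249 in edgeR).

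**Figure D4:**
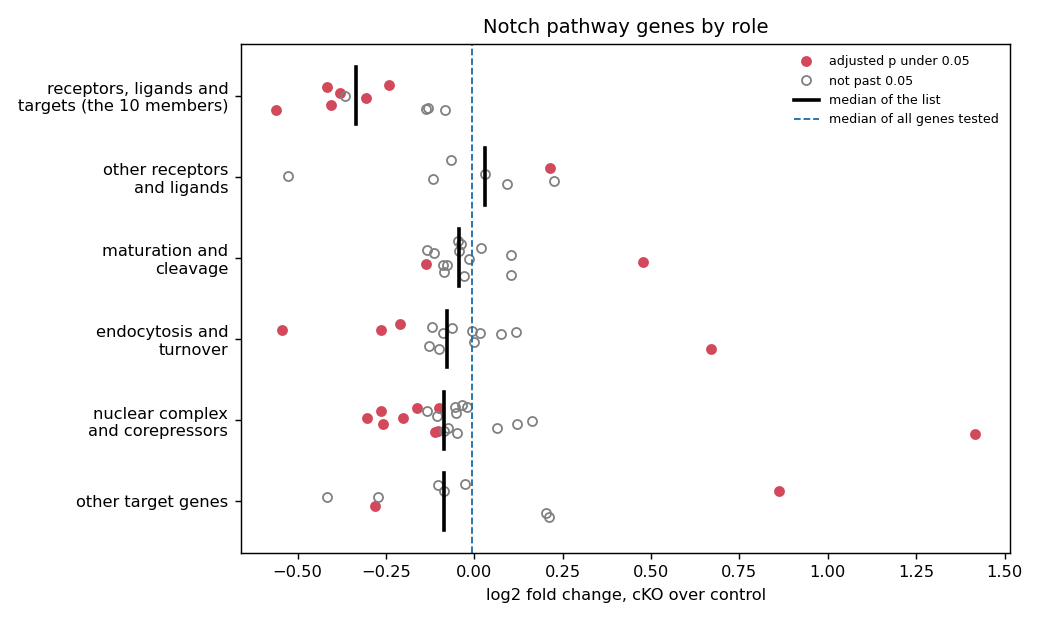
Log2 fold change of cKO over control (horizontal axis) for genes of the Notch pathway, grouped by role. Filled points have an adjusted p under 0.05 in edgeR, black bars are list medians and the dashed line is the median of all genes tested. The members have a median of -0.34, and the medians of the other lists lie between -0.09 and 0.03.

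Markers of other cell states moved beside these changes. Of 9 mature oligodendrocyte markers tested, 7 rose and 0 fell, and the 10 markers of the list summed to 349 to 2725 CPM in cKO and 273 to 1674 CPM in control libraries, higher in cKO in 4 of 4 pairs. Of 9 neuron markers tested, 5 rose and 0 fell, with a sum of 108 to 170 CPM in cKO and 84.8 to 127 CPM in control libraries. Of 10 astrocyte markers, 2 rose and 4 fell, and their sum was lower in cKO in 4 of 4 pairs, averaging 2059 ± 684 CPM in cKO and 2239 ± 748 CPM in control libraries (SD, n = 4 each). Slc1a3, a glutamate transporter named here after its values were seen, made up much of that sum and fell, at 944 CPM on average in cKO and 1137 CPM in control libraries. The list's median log2 fold change was 0.05, and its median level was lower in cKO in 3 of 4 pairs (exact paired permutation p = 0.375). Of 10 progenitor markers, 1 rose and 2 fell, and their sum was lower in cKO in 4 of 4 pairs. Gpr17, a receptor of committed progenitors, was also named after its values were seen. It had 160, 524, 4286 and 2879 CPM in cKO replicates 1, 3, 4 and 6. Control replicates 1, 3, 4 and 6 had 102, 488, 5377 and 3905 CPM. Gpr17 was thus higher in cKO in replicates 1 and 3, lower in 4 and 6, and did not pass (-0.02 ± 0.23, adjusted p = 0.972 in edgeR). The median log2 fold change of the list was -0.02, and its median level was lower in cKO in 3 of 4 pairs (exact paired permutation p = 0.375). The sums for mature oligodendrocyte, neuron, astrocyte and progenitor markers each had an exact paired permutation p of 0.12 (2-sided), the smallest possible. Endothelial markers summed to 3.93 to 9.63 CPM in cKO and 3.07 to 11.7 CPM in control libraries, with 0 of 4 tested past the threshold, 0 at an unadjusted p under 0.05 that fell and 2 that rose. The part of any of these cell types or states in the lower Notch, ligand and Hes5 levels was not tested.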

How the data were processed

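Processed estimated counts from RNA-seq of 8 cultures were analysed. Per the labels' protocols, mRNA was captured with oligo-dT from RNA of RIN 8 or more and fragmented. The deposited expected counts, 52% of them not whole numbers, were made with Partek, cutadapt and STAR on mm10, with DESeq2 also listed, per the submitters' processing notes; the sources used here do not give versions, annotation or strand setting. Of 24155 rows, 96.2% had the bounds of GENCODE M21 genes after 1 base was taken from the deposited end, and coordinates are given so.

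Counts were rounded, filtered with filterByExpr (minimum count 10, 6053 genes removed), scaled by TMM and tested in edgeR 4.0.16 (robust glmQLFit, R 4.3.3) with replicate number as a block; log2 CPM used a prior count of 2. The pairing is in the labels' batch names; deviations from group means correlated at 0.75 to 0.79 within numbers. No libraries were duplicates. The edgeR fits were tested on simulated data, where the fit with the block recovered most altered genes and made more false calls than its threshold allows on average, and the fit without it recovered fewer. Alternatives, in limma 3.58.1 and DESeq2 1.42.0 too, are given at the end. Lists are described by counts and medians, without a set test. Members and lists were chosen with earlier results of these data known; genes named were all members, the targeted genes, up to 4 genes per other list with the smallest p and the 3 most like the member with the smallest p; Rbpj, Slc1a3 and Gpr17 were added after their values were seen. Of 69 other pathway genes listed, 68 had a row. Counting errors cover counting only, since reads without molecular identifiers are not independent molecules.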

Additional observations from a re-analysis of the deposited data

Results flagged for a closer look

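Of 64 groups of 4 libraries checked (10 members, 2 targeted genes and 20 pathway genes, in cKO and in control), 2 held a library far from the other 3, its gap to the nearest, as a share of the group's range, being over Dixon's critical value. Chance gives about 1 such group in 20. Dner was at 146.5 CPM in cKO replicate 4, against 187 to 195 CPM in the other cKO libraries (share 0.843). Gfap was at 9.50 CPM in control replicate 6, against 0.235 to 1.79 CPM in the other control libraries (share 0.832). None of the 10 members had such a library in either group.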

How the results depend on the processing

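The replicate block decides the calls. Without the replicate block, edgeR called 1 gene higher and 2 lower, 0 of the members, and 0 higher and 0 lower among the other pathway genes (1 higher and 0 lower at an unadjusted p under 0.05). The log2 fold changes themselves were then -0.40 for Notch2, -0.25 for Notch3, -0.36 for Dll1, -0.64 for Dll3, -0.31 for Jag1 and -0.41 for Hes5. DESeq2 with no replicate block called 157 genes higher and 34 lower, 0 members, and 0 higher and 0 lower among other pathway genes, with fold changes of -0.40 for Notch2, -0.26 for Notch3, -0.36 for Dll1, -0.64 for Dll3, -0.31 for Jag1 and -0.41 for Hes5. With the block, the other settings on all 8 libraries (RLE or upper-quartile factors, no filter, 1 CPM in 4 libraries, DESeq2, limma-voom) kept every member on its side of the threshold except Dll3, at -0.55 with no filter. Leaving out 1 pair gave 1127 to 1702 genes higher and 910 to 1730 lower, 4 to 7 members lower, and 8 to 13 other pathway genes lower; fold changes were -0.33 to -0.17 for Notch3, -0.67 to -0.47 for Dll3 and -0.25 to -0.063 for Hey1. No member changed sign in any of the 12 alternatives, and Ehmt1 and Ehmt2 passed in all. The median in place of the sum turned the direction for microglia markers (0.209 CPM) and fibroblast markers (0.00848 CPM). The cause was not tested. Jag2 had 58 to 164 counts per library, and the counting error of its lowest count was 13.1%, against at most 4.81% for the other members.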
